A study of Homo sapiens with 7 samples.

Results

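FOXA1 peaks at and around the FOXA1 gene itself were examined, in a region of 800 kb on build hg19 (chr14:37600000-38400000) that holds the gene at about 38.06 Mb. The members are the peaks of all 7 deposited lists whose midpoint lies in this region, 264 of the 467188 peaks of the series. They comprise 13 SETD7 peaks and 251 FOXA1 peaks. The region was defined by position and by no measured value, though it was chosen with earlier results of these data known. The members nearest to its borders were 12.7 kb inside the lower one (LNCaP) and 14.3 kb inside the upper one (LNCaP), and the nearest peaks left out were 6.42 kb below it (LNCaP DMSO) and 1.84 kb above it (22Rv1 shCTL).

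The study mapped protein binding by chromatin immunoprecipitation and sequencing in 2 established human prostate cancer lines, CWR22-Rv1 (22Rv1 below) and LNCaP, with 1 library and 1 peak list per group. The 22Rv1 libraries hold 1 of SETD7 itself, from vehicle cells, and 3 of FOXA1, in vehicle cells, in cells carrying the control hairpin shCTL (named shNTC in the series' design text) and in cells stably carrying a hairpin against SETD7, shSETD7. The 3 LNCaP libraries are of FOXA1 after 4 hours of DMSO, of the LSD1 inhibitor GSK2879552, or of GSK2879552 plus the SETD7 inhibitor PFI-2. For the last library the title names both agents, while its treatment label reads with or without PFI-2, so it is called the combination by its title. Peak names in the vehicle FOXA1 list contain siNTC, a term absent from the labels, so that library is vehicle only as labelled. Whether the hairpin cells are a pool or 1 clone, and how far SETD7 fell, is not given in the sources used here. With 1 library per group no difference between conditions could be tested, and the 95% Wilson intervals below cover counting error only; neighbouring peaks are not independent, so they are if anything too narrow.

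FOXA1 is a forkhead transcription factor and a pioneer factor, able to bind its letters in closed chromatin and to open the way for others, among them the androgen receptor in prostate cells. A factor that binds next to its own gene can take part in setting its own level, which is called autoregulation. SETD7 is a lysine methyltransferase and LSD1 a lysine demethylase, and both are known to act on proteins other than histones, FOXA1 among them. On chromosome 14 the protein-coding neighbours of FOXA1 are MIPOL1 on one side and TTC6 on the other (RefSeq, GRCh38.p14), and introns of MIPOL1 are known to hold enhancers of FOXA1 in prostate cells. A peak shows where a protein was enriched, not that the site controls the gene.

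The promoter of FOXA1 is shown because forkhead proteins recognise short letters that can be looked for in it. RefSeq gives it on the minus strand of GRCh38.p14, chr14:37595250-37595499. This is another build than that of the peaks, so the sequence was not placed on the peaks' coordinates. The 250 bases before the gene's start are printed 5′ to 3′, with the forkhead letters in capitals:

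FOXA1 promoter: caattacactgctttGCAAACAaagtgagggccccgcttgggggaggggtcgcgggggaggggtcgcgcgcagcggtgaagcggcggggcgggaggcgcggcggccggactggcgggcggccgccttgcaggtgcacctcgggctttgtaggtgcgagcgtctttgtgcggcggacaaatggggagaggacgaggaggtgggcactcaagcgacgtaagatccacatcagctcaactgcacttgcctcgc

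The letters searched were TGTTTAC and TGTTTGC, on both strands, and they do not overlap in this stretch. TGTTTGC was found 1 time, on the other strand, where it reads GCAAACA, at bases 16 to 22 of the printed run. TGTTTAC was not found. Over the same 250 bases of 35116 RefSeq promoters, 3.23% held TGTTTGC and 6.09% either word. The match describes letters only and is not a measured site.

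The FOXA1 locus was densely bound in both lines. LNCaP held 48 peaks with DMSO, 40 with GSK2879552 and 49 with the combination. In 22Rv1 there were 36 in vehicle, 50 in shCTL and 28 in shSETD7 cells. In the 3634 windows of 0.8 Mb along the genome with a FOXA1 peak in any list, the median was 22 peaks for DMSO and for shCTL, 18 for GSK2879552, 23 for the combination, 17 for vehicle and 16 for shSETD7. The locus held more peaks than 99.6% of these windows with DMSO, 99.5% with GSK2879552 and 99.3% with the combination. The corresponding shares were 97.6% for shCTL, 95.6% for vehicle and 83.2% for shSETD7. So the locus lay among the most densely bound windows in all LNCaP lists and both 22Rv1 control lists, and lower in the order of the shSETD7 list, where 515 windows held more peaks. DNA copy number and read depth can move peak numbers and were not analysed here.

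**Figure D1:**
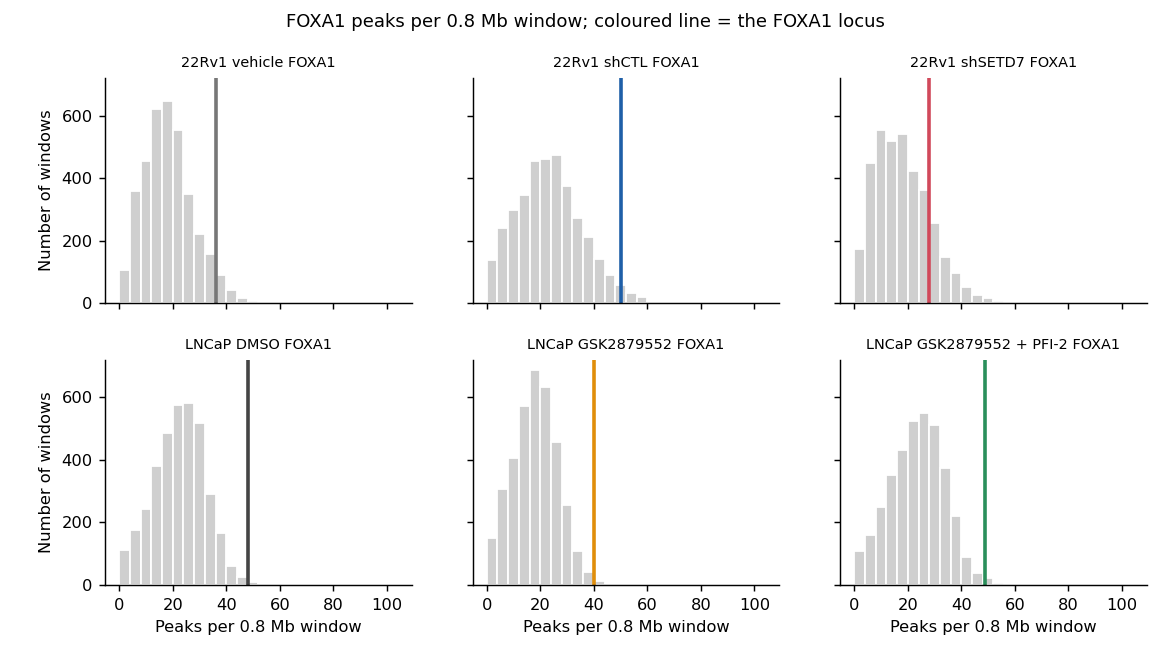
Number of FOXA1 peaks in each of 3634 windows of 0.8 Mb (grey histogram, x axis peaks per window, y axis windows), 1 panel per list; the coloured line is the window holding FOXA1. The line stands at 36, 50 and 28 peaks in the vehicle, shCTL and shSETD7 lists of 22Rv1, and at 48, 40 and 49 peaks in the DMSO, GSK2879552 and combination lists of LNCaP.

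Each peak is described below by its score percentile, the percentage of peaks in its own list with a lower score. The score is the authors' own number for a peak, and its definition is not given. The median percentile of the members was 59.6 in vehicle, 60.7 in shCTL, 59.3 in shSETD7, 62.2 with DMSO, 58.0 with GSK2879552 and 64.4 with the combination. The locus thus held somewhat stronger peaks than the middle of each FOXA1 list. It also held weak ones, the lowest being at percentile 0.570 (shCTL). Lists of different lengths do not share a scale, so percentiles are set side by side, and ranks are compared only after each list of a line was shortened to the same length.

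Overlapping FOXA1 peaks of the 6 lists merged into 90 sites, numbered 1 to 90 from the lowest position. Of these, 8 were found in all 6 lists, 12 in 5, 8 in 4, 14 in 3, 17 in 2 and 31 in a single list. Sites of a single list were made up of 10 in shCTL, 8 in shSETD7, 6 in vehicle, 3 in the combination, 2 in DMSO and 2 in GSK2879552. Both lines shared 35 sites, while 33 were found only in 22Rv1 and 22 only in LNCaP. No such counts over the genome are set beside these, so they do not show whether the locus differs from other regions. Distances below are from position 38.06 Mb, which is approximate, and are negative towards lower positions.

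**Figure D2:**
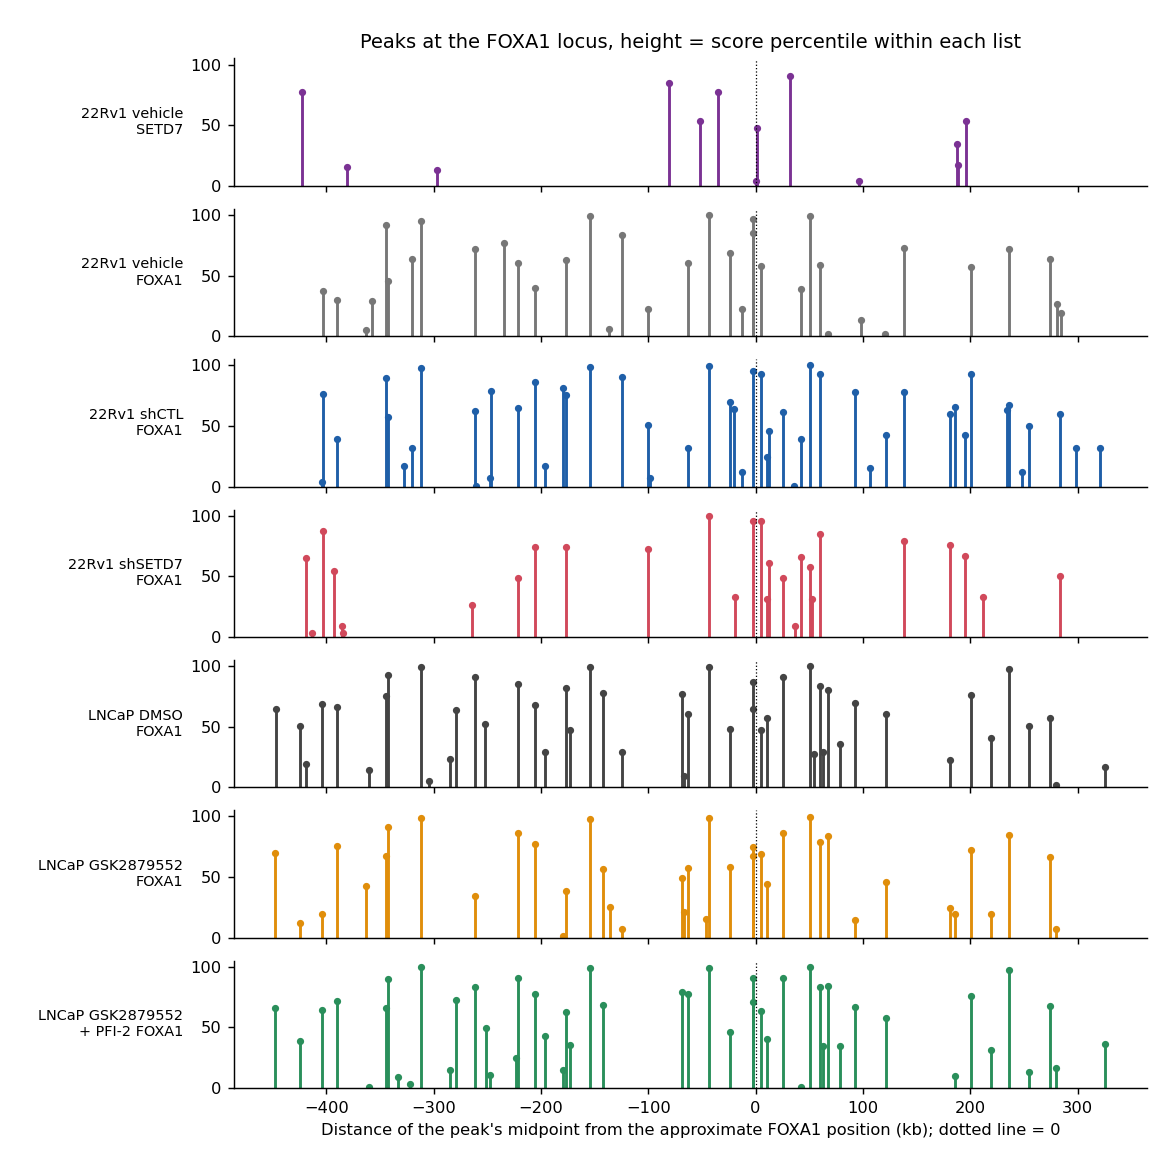
Every peak of the locus in the 7 lists; x axis, distance of the peak's midpoint from the approximate FOXA1 position in kb; y axis, score percentile within that list, 0 to 100. Peaks near percentile 99 stand at −44 and 51 kb in both 22Rv1 control lists and all LNCaP lists. In the shSETD7 list the peak at 51 kb stands at 57.4, and no peak stands between −384 and −264 kb.

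The sites closest to the gene were bound in every FOXA1 list. Site 53 (chr14:38057264-38058307, −2.22 kb) and site 54 (chr14:38064452-38064885, 4.67 kb) are the nearest to 38.06 Mb on each side. At site 53 the percentile was 96.9 in vehicle, 95.4 in shCTL, 95.5 in shSETD7, 86.5 with DMSO, 74.7 with GSK2879552 and 90.4 with the combination. The 22Rv1 values lie close together and above those of LNCaP. The shCTL and shSETD7 lists each gave 1 broad peak there, where the other 4 lists gave 2 narrower ones, and the values are those of the higher peak. At site 54 the percentile was 58.1 in vehicle, 92.5 in shCTL, 95.9 in shSETD7, 47.1 with DMSO, 68.7 with GSK2879552 and 63.5 with the combination. At this site the vehicle list stands with the LNCaP lists, apart from both hairpin lists, so the 2 control lists of 22Rv1 differed more from each other than shSETD7 did from shCTL, also with lists of equal length (57.1 in vehicle, 90.1 in shCTL and 95.9 in shSETD7). Site 54 was the second and site 53 the third highest score of the locus in the shSETD7 list, and neither was among the 3 highest in any other list.

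Strong distal sites were shared by both lines. Site 61 (chr14:38110226-38110786, 50.5 kb) had the highest score of the locus in shCTL (rank 57 of 83994 peaks), DMSO (148 of 80205), GSK2879552 (191 of 64217) and the combination (157 of 83833), and the second highest in vehicle (555 of 65461). In the shSETD7 list it ranked 27116 of 63952, at percentile 57.4. It was a peak in all 6 lists, but in 5 of them among the strongest of the genome and in the shSETD7 list near the middle.

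At site 49 (chr14:38015928-38016684, −43.7 kb) the shSETD7 list stood with the others. Its percentile was 99.6 in vehicle, 99.8 in shCTL, 99.4 in shSETD7, 98.8 with DMSO, 98.5 with GSK2879552 and 98.8 with the combination. It was the highest score of the locus in the vehicle and shSETD7 lists. All 6 lists placed it in their top 2%.

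The other 4 sites found in all 6 lists were weaker. Site 64 (chr14:38119456-38120150, 59.8 kb) had percentiles of 58.6 in vehicle, 92.5 in shCTL, 85.1 in shSETD7, 83.4 with DMSO, 78.8 with GSK2879552 and 83.7 with the combination. Site 33 (chr14:37854491-37854871, −205 kb) was at 40.2, 86.4, 74.2, 67.8, 77.3 and 77.7 in the same order. Site 36 (chr14:37882807-37883277, −177 kb) was at 62.8, 75.9, 74.2, 81.7, 38.7 and 62.8. These 3 sites kept a place above the middle of the shSETD7 list, and site 36 was below the middle only with GSK2879552. Site 32 (chr14:37838678-37839099, −221 kb) was at 60.7 in vehicle, 65.1 in shCTL, 48.8 in shSETD7, 85.1 with DMSO, 86.4 with GSK2879552 and 90.4 with the combination, with all LNCaP values above all 22Rv1 values. Sites 49, 53, 54 and 61 make up the 8.

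FOXA1 peaks of shCTL and shSETD7 cells were compared to ask which sites at its own gene FOXA1 still occupied after SETD7 knockdown. Of the 50 shCTL peaks of the locus, 31 had no shSETD7 peak, or 62.0% (48.1 to 74.1), against 55.5% of all 83994 shCTL peaks. Of the same 50 peaks, 24 had no peak in the vehicle list (48.0%), against 48.7% over the whole list. The share without an shSETD7 peak is near that of the genome, and the interval holds the genome's value, so the counts do not set the locus apart. Weighted to the score groups of the locus's peaks (10 groups of equal size), 48.5% of the whole list was found in shSETD7, against the 38.0% (19 of 50) at the locus. In the other direction, 9 of the 28 shSETD7 peaks had no shCTL peak (32.1%), against 41.8% of the whole shSETD7 list.

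The sites without an shSETD7 peak included strong ones. In the top 10% of shCTL scores the locus held 9 peaks, and 4 of them had no shSETD7 peak while all 9 were found in vehicle and all 9 with DMSO in LNCaP. Over the whole shCTL list, 78.4% of the top 10% were found in shSETD7, 96.0% in vehicle and 87.1% with DMSO. At the locus 5 of the 9 were found in shSETD7 (55.6%, 26.7 to 81.1), and the interval holds the whole-list share. None of the 31 sites had an shSETD7 peak with its midpoint within 1 kb.

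The 5 highest of these 31 sites in the shCTL list lay on both sides of the gene. Site 38 (chr14:37905466-37906170, −154 kb) was at percentile 98.8 in vehicle, 98.8 in shCTL, 98.9 with DMSO, 98.1 with GSK2879552 and 99.2 with the combination. Site 20 (chr14:37747768-37748713, −312 kb) was at 95.3, 97.8, 99.5, 98.4 and 99.6 in the same order. In the 5 lists other than shSETD7 both were in the top 5% throughout, and in the shSETD7 list neither was a peak. Site 77 (chr14:38260493-38260936, 201 kb) was at 57.1 in vehicle, 92.7 in shCTL, 75.7 with DMSO, 72.1 with GSK2879552 and 75.9 with the combination. Site 42 (chr14:37935798-37936200, −124 kb) was at 83.7 in vehicle, 90.2 in shCTL, 29.5 with DMSO and 7.29 with GSK2879552, and was not a peak with the combination. Site 14 (chr14:37715669-37716172, −344 kb) was at 91.7 in vehicle, 89.9 in shCTL, 75.3 with DMSO, 67.1 with GSK2879552 and 65.9 with the combination. Sites 42 and 14 were stronger within the 22Rv1 control lists than within the LNCaP lists.

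Of the 18 sites found in vehicle, shCTL and all 3 LNCaP lists, 8 were also in the shSETD7 list and 10 were not (55.6%, 33.7 to 75.4), against 36.9% of 23109 such sites over the genome. The interval holds the genome's value. The 10 were sites 8, 14, 15, 20, 25, 38, 47, 50, 77 and 81. They are not only weak sites: their shCTL percentiles ran from 32.0 to 98.8 with a median of 68.6, and their DMSO percentiles from 47.9 to 99.5 with a median of 83.2. The 8 sites found in all lists had shCTL percentiles of 65.1 to 99.9 with a median of 92.5. In the other lists the classes were closer or in the opposite order: the medians of the 8 and the 10 were 61.8 and 70.3 in vehicle, and 84.2 and 83.2 with DMSO.

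**Figure D3:**
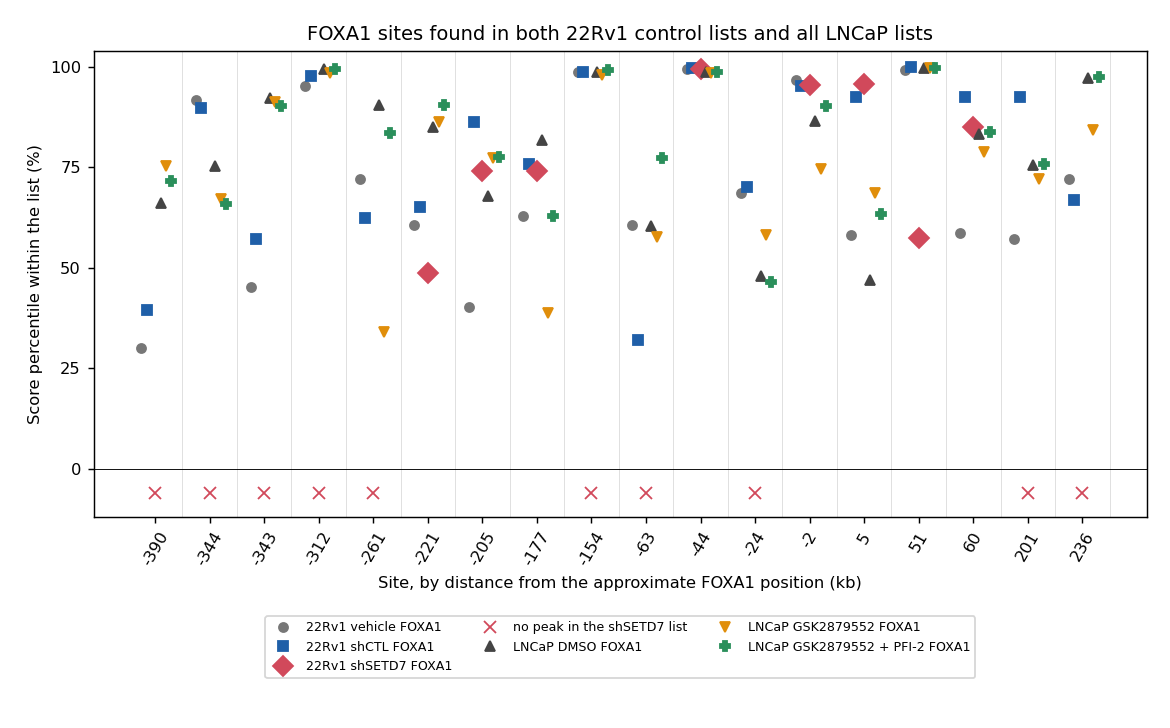
The 18 sites found in vehicle, shCTL and all 3 LNCaP lists, ordered by distance from the approximate FOXA1 position (x axis, kb); y axis, score percentile of the site's highest peak within each list, 0 to 100, with a cross below 0 where the shSETD7 list had no peak. Crosses stand at 10 sites, 5 of them at −261 kb or farther on the lower side; the 8 shSETD7 diamonds run from 48.8 to 99.4.

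The share of shCTL peaks found in the shSETD7 list was lower far from the gene than near it. Missing peaks lay in both parts. Within 200 kb of 38.06 Mb, 15 of 28 shCTL peaks were found in the shSETD7 list, or 53.6% (35.8 to 70.5). Farther out, 4 of 22 were, or 18.2% (7.31 to 38.5). The vehicle list held 14 of the 28 (50%) and 12 of the 22 (54.5%), so it showed no such gap between near and far. The near and far peaks had like scores, with median shCTL percentiles of 62.9 and 58.5. Weighted to the score groups of the peaks in each part, 51.1% of the whole list was found in shSETD7 for the near part and 45.2% for the far part. With vehicle in place of shCTL, 10 of 19 near peaks and 4 of 17 far peaks were found in shSETD7, against weighted whole-list shares of 48.05% and 44.2%. Both comparisons use the same shSETD7 list and share 26 control sites, so the second is not independent of the first. This split was set beside the other comparisons after the positions had been seen, and the difference was not tested, since peaks of 1 library are not replicates.

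By position, in steps of 200 kb, the shSETD7 list held 1 of 10 shCTL sites between 37.6 and 37.8 Mb, 4 of 12 up to 38 Mb, 11 of 17 up to 38.2 Mb and 3 of 11 up to 38.4 Mb. The vehicle list held 7, 7, 9 and 3 of the same sites. The step that holds the gene was the highest for shSETD7. In the last step both lists held equally few.

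**Figure D4:**
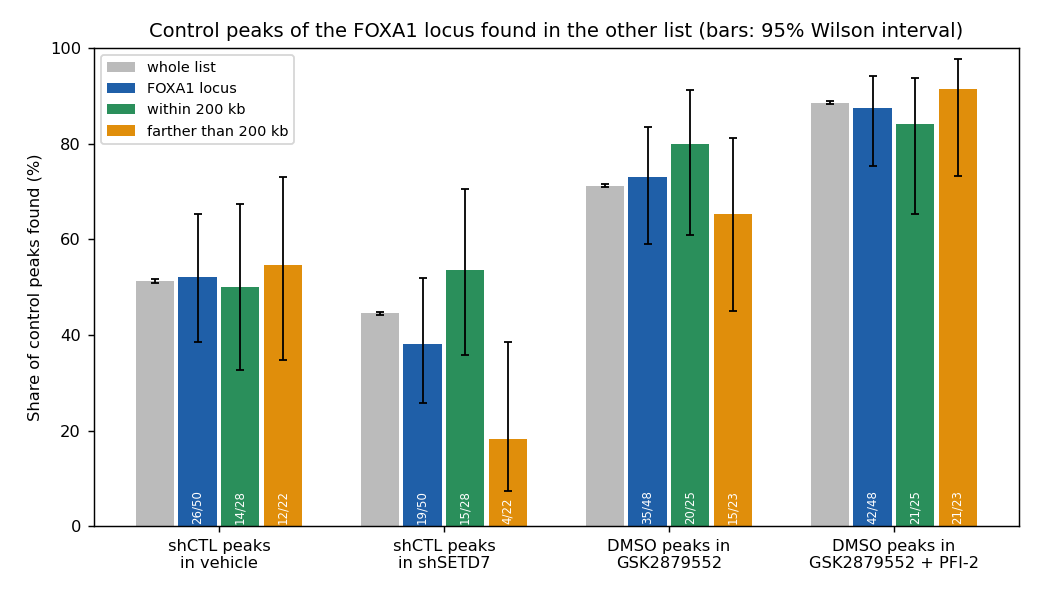
Share of control peaks found in another list (y axis, %), for the whole list, the FOXA1 locus, and its parts within and beyond 200 kb of the approximate FOXA1 position; error bars are 95% Wilson intervals, and the numbers in the bars are peaks found of all. The shCTL peaks found in shSETD7 fall from 15 of 28 near the gene to 4 of 22 farther out, while vehicle holds 14 of 28 and 12 of 22.

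Sites found in shSETD7 but not in shCTL were weak or moderate. Sites 4, 7, 9, 10, 24, 59, 62 and 78 were in no other list. The ninth, site 3 (chr14:37641060-37641633, −419 kb), was the strongest, at percentile 65.1, and was also a DMSO peak, at 19.03. Next was site 7 (chr14:37666722-37667437, −393 kb) at 54.1, and the other 7 were at 33.2 or lower. Their median was 26.1. Over the whole shSETD7 list, 85.1% of peaks above the middle by score had an shCTL peak, against 31.3% of those below it. At the locus these shares were 88.2% and 36.4%. Low scores of sites without an shCTL peak therefore do not set the locus apart. Sites 3, 4, 7, 9 and 10 lie between −419 and −384 kb, at the lower border of the region, where the shCTL list held sites 5, 6 and 8.

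Among the peaks that all 22Rv1 lists shared, knockdown cells did not rank lower as a rule. In lists shortened to 63952 peaks each, 13 shCTL peaks of the locus were found in all 3 lists. The shSETD7 percentile was the lowest of the 3 at 3 of these (23.1%), against 22.8% of such peaks over the whole list, and the highest at 7 (53.8%), against 54.5%. The order at the locus was thus that of the genome. Site 61 gave the widest downward gap, from 99.9 in shCTL and 99.1 in vehicle to 57.4 in shSETD7 at equal length. Over the genome, of the 837 shCTL peaks in the top 1%, 8.60% were found in the shSETD7 list below percentile 60 and 9.92% had no peak there, against 0.836% and 0.478% for the vehicle list. The widest upward gap was at site 60 (chr14:38101839-38102248, 42.0 kb), at 20.5 in shCTL, 37.5 in vehicle and 66.3 in shSETD7. Sites 60 and 61 are neighbours, and their gaps had opposite signs. Site 60 is singled out here after its values were seen. With 1 library a group, knockdown and library cannot be told apart in any of these values.

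In LNCaP, DMSO and GSK2879552 were compared to ask which sites at the gene changed with LSD1 inhibition. Of the 48 DMSO peaks, 13 had no GSK2879552 peak, or 27.1% (16.6 to 41.0), against 28.8% of the whole DMSO list. The share at the locus was near that of the genome. Weighted to the score groups of the locus's peaks, 78.2% of the whole list was found with GSK2879552, against 72.9% (35 of 48) at the locus. All 8 DMSO peaks in the top 10% of scores were found with GSK2879552, as were 8019 of 8020 such peaks over the whole list. Of the 40 GSK2879552 peaks, 5 had no DMSO peak (12.5%), against 10.4% of the whole list.

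The 13 sites bound with DMSO and not with GSK2879552 were weak or moderate, with DMSO percentiles of 5.39 to 64.1 and a median of 28.9. The 34 sites with one had a median of 72.4. The highest of the 13 were site 23 (chr14:37780362-37780832, −279 kb) at 64.1, site 27 (chr14:37808114-37808595, −252 kb) at 52.2, site 83 (chr14:38314820-38315124, 255 kb) at 50.9, site 37 (chr14:37887048-37887378, −173 kb) at 47.5 and site 67 (chr14:38138646-38138980, 78.8 kb) at 35.9. The other 8 were sites 3, 12, 21, 22, 34, 63, 65 and 90. The nearest of the 13 to the gene was site 63, 54.6 kb away. Nearer DMSO sites were sites 49, 50, 53, 54, 55, 57 and 61, at DMSO percentiles of 47.1 to 99.8. Over the whole DMSO list, 72.0% of peaks in score group 5 of 10 were found with GSK2879552, rising to 99.99% in group 10, the highest. Finding all of these nearer sites therefore does not set the gene's surroundings apart.

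The 5 sites with GSK2879552 but no DMSO peak were sites 11, 35, 41, 48 and 75. Their GSK2879552 percentiles ran from 1.02 to 43.0, all below the middle of the list. Over the whole GSK2879552 list, 99.1% of peaks above the middle had a DMSO peak, against 80.2% of those below it. At the locus these shares were 100% and 72.2%. The low percentiles therefore do not set the locus apart. Site 35 (chr14:37880552-37880944, −179 kb) and site 75 (chr14:38245146-38245746, 185 kb) were also peaks with the combination and in shCTL, where they stood at 81.0 and 65.4. Site 11 (chr14:37696682-37696893, −363 kb) was also a vehicle peak, at 5.23. Sites 41 and 48 were in no other list.

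The combination was compared to ask whether DMSO sites at the gene were present when SETD7 was inhibited together with LSD1. Of the 48 DMSO peaks, 6 had no peak with the combination, or 12.5% (5.86 to 24.7), against 11.4% of the whole DMSO list. Of the 13 peaks that GSK2879552 lacked, 10 were present with the combination (76.9%, 49.7 to 91.8), against 67.9% of such peaks over the whole list. In both of these shares the locus was close to the genome. Sites 3, 21 and 63 were in neither treated list. Of the 40 GSK2879552 peaks, 6 had no peak with the combination (15%), against 7.97% of the whole GSK2879552 list, and the interval at the locus (7.06 to 29.1) holds that value. In the lower-scoring 50% of that list, 12 of 18 locus peaks were found with the combination (66.7%, 43.75 to 83.7). The whole-list share there was 84.45%, just outside this interval. Of 1513 windows of 0.8 Mb with at least 20 GSK2879552 peaks, 8.46% had a lower share found than the locus. This difference was not tested.

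Where all LNCaP lists held a peak, GSK2879552 ranked some sites lower and others higher. In lists shortened to 64217 peaks each, 31 DMSO peaks of the locus were found in all 3. GSK2879552 gave the lowest percentile of the 3 at 13 (41.9%), against 38.2% over the whole list, and the highest at 11 (35.5%), against 40.2%. Both shares were near those of the genome.

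The widest gaps between DMSO and GSK2879552 at equal length, singled out after their values were seen, were at distal sites. Site 25 (chr14:37798344-37799280, −261 kb) was at 88.3 with DMSO, 34.0 with GSK2879552 and 78.5 with the combination. Site 68 (chr14:38152366-38152807, 92.6 kb) was at 61.9, 14.9 and 56.3 in the same order. Site 5 (chr14:37656178-37656589, −404 kb) was at 61.0, 19.6 and 53.5. At these 3 sites the combination was nearer to DMSO than to GSK2879552. At the next widest downward gaps it was not: site 36 was at 77.2, 38.7 and 51.5, and site 2 (chr14:37635632-37635971, −424 kb) at 37.8, 12.02 and 20.6 in the same order, with the combination nearer to GSK2879552. The widest upward gap was next to the gene, at site 54, with 33.9 for DMSO, 68.7 for GSK2879552 and 52.3 for the combination. Site 50 (chr14:38035936-38036625, −23.7 kb) followed at 35.0, 58.3 and 30.1. At the 5 strongest DMSO sites, ranks of 64217 were 148 with DMSO, 191 with GSK2879552 and 157 with the combination at site 61, and 972, 958 and 1014 at site 49. Site 38 ranked 890, 1199 and 691, and site 20 ranked 392, 1015 and 358. Site 81 (chr14:38295957-38296580, 236 kb) ranked 2273 with DMSO, 10003 with GSK2879552 and 2011 with the combination. GSK2879552 gave the lowest place of the 3 at sites 20, 38, 61 and 81, and not at site 49. These sites were picked by a high DMSO score. No such share over the genome's strongest DMSO peaks is set beside this order, so it does not set the locus apart. Whether gaps of this size occur between repeats of 1 condition was not tested.

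SETD7 peaks were set against the FOXA1 sites to ask whether both proteins were found at the same places. The 13 SETD7 peaks of the locus had scores of 17 to 60, in a list whose median was 28, and none was in the top 1% of that list. Of the 13, 1 overlapped a FOXA1 peak of any list (7.69%, 1.37 to 33.3), against 19% of all 25526 SETD7 peaks. That peak (chr14:38255586-38255882, 196 kb, percentile 53.4) overlapped site 76 (chr14:38255357-38255646), a weak site of shCTL (43.0) and shSETD7 (66.5) only. The interval holds the whole-list share, so the count does not set the locus apart.

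Near the gene, SETD7 peaks lay between FOXA1 sites 53 and 54, at chr14:38060621-38060896 (percentile 4.41) and chr14:38061233-38061746 (48.0), at least 2313 bp from the nearest FOXA1 peak. The highest SETD7 score of the locus was at chr14:38091684-38091977 (31.8 kb, percentile 90.5), 3141 bp from the nearest FOXA1 peak. It was followed by chr14:37979427-37979690 (−80.4 kb, 84.7), then by chr14:37636871-37637267 (−423 kb) and chr14:38025182-38025490 (−34.7 kb), both at 77.5. The other 6 peaks, at −380, −297, −51.8, 96.6, 187.5 and 188.4 kb, were at percentile 53.4 or lower. None of the strong FOXA1 sites missing from shSETD7, such as sites 20 and 38, overlapped a SETD7 peak. Of all 90 sites only site 76 did, so the same held for strong sites found in shSETD7, such as sites 49, 53, 54 and 61. The share of FOXA1 sites over the genome that overlap a SETD7 peak is not set beside this count.

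The lines were compared to see how far the binding at the gene was shared. Of the 36 vehicle peaks in 22Rv1, 14 had no DMSO peak in LNCaP (38.9%, 24.8 to 55.1), against 51.7% of the whole vehicle list. In the top 10% of vehicle scores, all 6 peaks of the locus were found with DMSO, against 91.8% over the whole list. Of the 21 vehicle peaks in the higher-scoring 50% of the list, 18 were found with DMSO, and of the 15 in the lower 50%, 4. Over the whole list these shares were 65.7% and 30.9%. The stronger sites were shared more often than the weaker ones, at the locus and over the genome.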

How the data were processed

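The 7 deposited peak lists, 1 per library, give each peak's position and a whole-number score made by the authors; how that score is defined, at which threshold peaks were kept and against which input is not given in the sources used here. Per the submitters' processing notes, the tools were MACS2 2.1.4, SAMtools 1.9, BWA 0.7.17-r1188 and FastQC 0.11.9, named without roles or settings, and the build hg19. Read depth is unknown. From these lists, peaks were placed by midpoint, matched by an overlap of 1 bp or more, merged into sites and ranked by score within each list, in Python 3.11.15 with pandas 2.3.3 and numpy 2.4.6. The overlap and merging steps were tested on simulated data with known answers. No condition has a second library, so no test was made; shares carry 95% Wilson intervals for counting error only. Sites named are the nearest to the gene on each side, those in all 6 FOXA1 lists, those present in only 1 list of a control and treated pair (the 5 highest where more than about 20), the 3 highest scores of each list and every SETD7 peak. Region, site lists and comparisons were chosen with earlier results of these data known. Other overlap rules, equal-length lists, the higher-scoring 50% of each list, wider merging and a narrower region were tried. Gene ends, exons and promoters were not placed on hg19, and DNA copy number and expression were not analysed here.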

Additional observations from a re-analysis of the deposited data

How the results depend on the processing

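Of 30 alternative values, 25 moved by less than the counting interval of the main value, or for counts by less than 1.5 times. The share of shCTL peaks found in shSETD7, 38% at the locus, was 53.6% within 200 kb on each side of the FOXA1 position. With the vehicle list in place of shSETD7, an alternative chosen after seeing the data, it was 52%. The other settings gave 32% (reciprocal 50% overlap) to 50% (shCTL sites also in vehicle, likewise chosen after seeing the data). Sites in all 6 FOXA1 lists numbered 8, and 4 with the higher-scoring 50% of each list, where fewer peaks enter. The 1 SETD7 peak that overlapped a FOXA1 peak became 0 with midpoints within 200 bp and 0 with reciprocal 50% overlap, which are stricter. DMSO peaks found with GSK2879552 ranged from 64.5% to 80%, and with the combination from 84% to 87.5%. The equal-length order of percentiles, the shares of the top 1%, the genome's share of sites in both controls and all LNCaP lists that lack shSETD7, and the counts beyond 200 kb were also chosen after seeing the data. No paired analysis was possible because each group has 1 library. The number of libraries and the unknown read depth limit every comparison: a peak missing from a list is not shown to be an unbound site.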

Other observations

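Sites of a single line ran through the whole locus. In LNCaP, 6 sites were found in all 3 lists and in no 22Rv1 list, namely sites 1, 2, 39, 45, 79 and 85. Their DMSO percentiles ran from 1.76 to 77.9, with a median of 57.4. The highest were site 39 (chr14:37917378-37917804, −142 kb) at 77.9 with DMSO, 56.4 with GSK2879552 and 68.1 with the combination, and site 45 (chr14:37991511-37991886, −68.3 kb) at 77.2, 49.05 and 78.9 in the same order. At both sites GSK2879552 gave the lowest value, also with lists of equal length. The other sites were mixed at equal length. At site 1 GSK2879552 gave the highest value, 70.1 against 55.9 with DMSO and 56.0 with the combination. It gave the lowest at site 2, while at site 79 the combination did. Site 85 was not in all of the shortened lists.

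In 22Rv1, sites 6, 43, 73 and 87 were found in all 3 lists and in no LNCaP list. Site 73 (chr14:38198388-38199074, 139 kb) was at percentile 73.0 in vehicle, 78.2 in shCTL and 79.3 in shSETD7. Site 6 (chr14:37657199-37657649, −403 kb) was at 37.7, 76.3 and 87.4, and site 43 (chr14:37959267-37959613, −101 kb) at 22.2, 50.85 and 72.9. Site 87 (chr14:38343811-38344322, 284 kb) was at 19.1, 59.98 and 50.5. The lists differ in length, so these values show no change between groups. Sites in both hairpin lists and in no other list were sites 51, 56 and 76, with shSETD7 percentiles of 33.2, 61.2 and 66.5. A difference between the lines can also reflect the lines' DNA copy number or depth, whose part was not tested. These sites were chosen after their values were seen. Neither the LNCaP nor the 22Rv1 counts have a count over the genome beside them, so they do not set the locus apart.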
